A study of Mus musculus with 9 samples.

Results

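The 10 genes described here encode extracellular WNT antagonists and were chosen by name, with earlier results of these data known: Dkk1, Dkk2, Dkk3, Dkk4, Wif1, Notum, Sostdc1, Sfrp1, Frzb and Apcdd1. Apcdd1 encodes a membrane-anchored glycoprotein rather than a freely secreted one. All 10 of the 10 were found among the 24444 gene symbols counted, and all 10 passed the filter on low counts, which kept 15171 genes. Dkk1, Dkk4 and Sostdc1 passed that filter through tumour libraries only, since none of the 3 control libraries reached the 0.409 CPM it required. Levels are in CPM, read counts divided by the TMM-scaled size of their library, on which scale 3 counts come to 0.103 to 0.170 CPM.

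WNT proteins are lipid-modified ligands that bind Frizzled receptors and the co-receptors Lrp5 and Lrp6 and so keep beta-catenin from being destroyed. Cells limit this signal with proteins that act outside the cell, and several of their genes are themselves switched on by beta-catenin, so that they form negative feedback. In WNT medulloblastoma, a tumour of the dorsal brainstem and cerebellum driven by stabilised beta-catenin, such antagonists are known as marker genes and have been tied to the leaky vessels of these tumours.

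RNA-seq counts came from 9 mouse libraries in 3 groups of 3. Normal cerebellum from CD1-nude animals, whose missing thymus leaves them few T cells, served as control. Both tumour groups were grown in the brains of CD1-nude hosts after implanting cells of a WNT-medulloblastoma model with Blbp-Cre, Ctnnb1Ex3flx/flx, Trp53flx/flx and Pik3caE545K +/flx. In these cells the Blbp promoter, active in radial glia and neural progenitors, drives Cre, loss of exon 3 stabilises beta-catenin, Trp53 is deleted and an activated Pik3ca is expressed, so that both tumour groups share all of these changes. They differ in the added construct, which was EV (read here as the vector alone) or MycT58A, a Myc mutant whose protein is degraded more slowly. Tissue was taken from the parts of a tumour that were positive for GFP. The study speaks of biological replicates, but ages are not given, nor whether 1 batch of cells gave rise to all tumours of a group, so that a p-value covers no more than the spread seen between libraries. In bulk tissue fewer cells of a type and less RNA per cell cannot be told apart.

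Total counts ranged from 16631523 to 30410089 per library. The engineered gene, Myc, was at 918, 859 and 727 CPM in MycT58A libraries, at 360, 19.9 and 762 CPM in the EV libraries, and at 0.94, 1.595 and 32.0 CPM in the controls. The library labelled EV replicate 3 therefore lay within the MycT58A range, and counts of antagonists and several single values are also given without it. The labels give the control tissue as normal cerebellum, while a protocol text speaks of cortex. The 10 granule neuron markers summed to 4133 to 5849.6 CPM in the controls, while the 8 forebrain cortex markers summed to 45.2 to 87.6 CPM with Emx1 at 0 in all 9 libraries.

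Most of the 10 antagonists were far higher in tumours than in cerebellum. As they were chosen with earlier results known, the shares below describe these 10 and do not test antagonists as a class. Of 6 further antagonists tested, 2 rose and 1 fell in EV tumours, and 3 rose and 1 fell in MycT58A tumours by edgeR. In EV tumours 8 of the 10 rose and 0 fell (edgeR quasi-likelihood test, adjusted p under 0.05), where 30.7% of all tested genes rose and 26.3% fell. In MycT58A tumours 8 rose, against 31.2% of all tested genes, and 1 fell, against 31.0%. Wif1, Notum, Apcdd1, Dkk1, Dkk2, Dkk3, Dkk4 and Sostdc1 rose in both tumour groups, Frzb fell in MycT58A tumours, and Sfrp1 passed in neither. Dkk1, Dkk4 and Sostdc1 entered the test through tumour libraries only, so that a fall could not have been seen in them. They also count in the medians and overlaps below. With no filter on low counts 8 of the 10 again rose in each tumour group by edgeR, Dkk1, Dkk4 and Sostdc1 included. Of all genes in that fit 25.1% rose in EV and 24.5% in MycT58A tumours. Set apart from them, Wif1, Notum, Apcdd1, Dkk2 and Dkk3 rose in both groups. The median log2 fold change of the 10 genes was 6.72 in EV and 5.79 in MycT58A tumours, where that of all tested genes was 0.14 and -0.02. Both comparisons use the same 3 control libraries. In 7 of the 10 every EV library lay above every control, as in 30.3% of all tested genes. In 9 every MycT58A library did, as in 41.0%, and in 1, Frzb, every MycT58A library lay below, as in 41.5%. Without the library labelled EV replicate 3, 9 of the 10 rose in EV tumours, Sfrp1 included, where 31.3% of all tested genes rose.

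**Figure D1:**
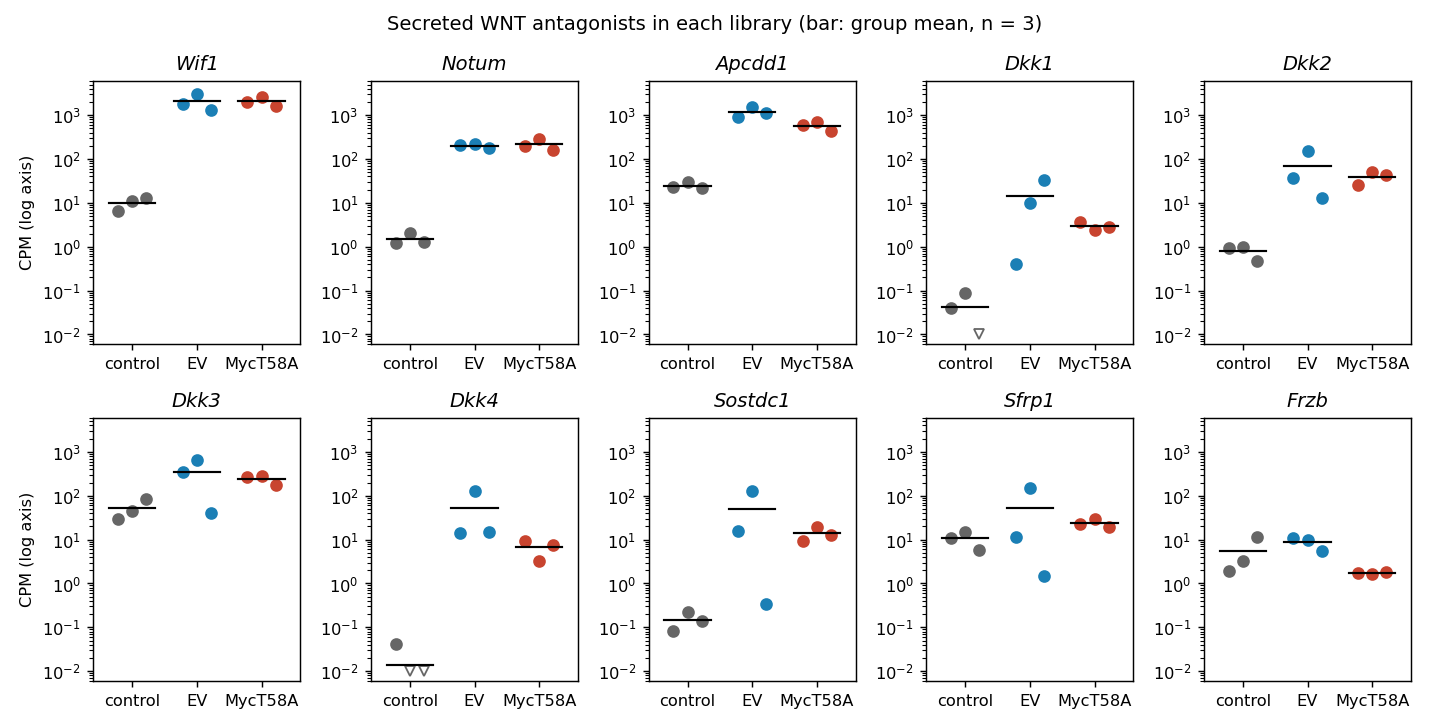
Level of each antagonist in CPM on a logarithmic axis, 1 point per library in the order of replicates 1 to 3, with the group mean as a bar (n = 3); open triangles mark libraries with 0 counts, drawn at the foot of the axis. Wif1, Notum and Apcdd1 lie close together among the tumours, while Sostdc1, Sfrp1 and Dkk1 are scattered among the EV libraries and close together among the MycT58A libraries.

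Wif1, Notum and Apcdd1 rose with the smallest standard errors among the 10. Wif1 binds WNT proteins directly through its WIF domain and keeps them from their receptors. It stood at 6.42, 11.2 and 12.9 CPM in the control libraries, at 1792, 3080.0 and 1316 CPM in the EV libraries and at 2036, 2629 and 1609.9 CPM in the MycT58A libraries. Every tumour library was thus more than an order of magnitude above every control library, and the tumour groups overlapped. The rise was 203-fold in EV tumours (log2 fold change 7.66 ± 0.51 SE, edgeR adjusted p = 2.2e-05), and in MycT58A tumours it was 205-fold (log2 fold change 7.68 ± 0.51 SE, edgeR adjusted p = 2.28e-05). Between the tumour groups the log2 difference was 0.02, with a 95% interval from -0.85 to 0.89 (edgeR adjusted p = 0.975). Ranked by CPM per kilobase of exon among 14816 tested genes with a known length, Wif1 stood between rank 5 and rank 68 in the 6 tumour libraries and between rank 6710 and rank 8878 in the controls.

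Notum is a secreted enzyme that strips the palmitoleate group from WNT proteins, without which they cannot bind Frizzled. Its levels were 1.23, 2.08 and 1.31 CPM in the controls, 210, 222 and 176 CPM in the EV libraries and 202, 288 and 157 CPM in the MycT58A libraries. The controls were uniformly low and the tumours uniformly high, with the 3 EV values inside the range of the MycT58A values. Notum rose 131-fold in EV tumours (log2 fold change 7.04 ± 0.36 SE, edgeR adjusted p = 1.28e-05) and in MycT58A tumours 139.8-fold (edgeR adjusted p = 1.52e-05). The log2 difference between the tumour groups was 0.09, with a 95% interval from -0.54 to 0.72 (edgeR adjusted p = 0.844). Notum (chromosome 11, 120653788 to 120661175, mm10) shares 708 exonic bases with Notumos and 210 with Myadml2os, both annotated on the opposite strand. Whether strand was used in counting is not given in the sources used here, so reads of these genes cannot be told apart.

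Apcdd1 inhibits WNT signalling at the cell surface, where it binds WNT and LRP proteins, and in the brain it is also known as a gene of barrier endothelium. Its levels were 23.5, 29.2 and 21.6 CPM in the controls, 889, 1523 and 1112 CPM in the EV libraries and 590.5, 713 and 429.6 CPM in the MycT58A libraries. Of these 3 genes it is the one whose tumour groups did not overlap, with every MycT58A library below every EV library. It rose 47.4-fold in EV tumours (log2 fold change 5.57 ± 0.33 SE, edgeR adjusted p = 1.89e-05) and in MycT58A tumours 23.3-fold (edgeR adjusted p = 2.56e-05). Beside it, 12 of 12 endothelial markers were detected in every library, and their summed level was 238 to 266 CPM in controls, 91.1 to 483 CPM in EV and 89.5 to 161 CPM in MycT58A tumours. The 12 genes listed for barrier endothelium, also all detected, summed to 374 to 407 CPM in controls, 194 to 298 CPM in EV and 148 to 177 CPM in MycT58A tumours. Among the EV libraries the endothelial sum was highest in replicate 2 and lowest in replicate 1, as was Apcdd1. The barrier list also holds Plvap, a gene of leaky vessels, at 13.6, 86.1 and 10.6 CPM in EV replicates 1, 2 and 3. The order of the barrier sum among the EV libraries depends on Plvap and is not set beside Apcdd1. The part of endothelial cells in the Apcdd1 level was not tested.

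On mm10 in GENCODE vM21, Wif1 lies on chromosome 10 (121033960 to 121100650, plus strand), Dkk1 on chromosome 19 (30545863 to 30549665, minus strand), Dkk4 on chromosome 8 (22624043 to 22627547, plus strand) and Frzb on chromosome 2 (80411970 to 80447625, minus strand). RefSeq promoter windows on GRCm38.p6, 250 bases before to 50 after the start, were at hand for 4 of the 10 genes: Dkk1, Dkk2, Frzb and Wif1. Each was searched on both strands for the TCF/LEF letters CTTTGAT and CTTTGAA and for the E-box CACGTG, the letters that MYC with its partner MAX is known to bind. A TCF/LEF match is shown for Dkk1 and an E-box match for Wif1, because all tumours carry stabilised beta-catenin and those of the MycT58A group carry a Myc mutant. The TCF/LEF letters were found in the Dkk1 window alone among the 4, at -117 from the RefSeq start, and 8.65% of all 32851 windows hold either form. The E-box was found in the Wif1 window alone, at -210 from the RefSeq start, and 7.15% of all windows hold it. The GENCODE transcript of Dkk1 starts farther upstream, so that the Dkk1 match lies inside the gene as GENCODE draws it. Such matches describe the sequence and do not show a bound site. For Wif1 the bases before the starts of both RefSeq and GENCODE are given (chr10:121033754-121033959, plus strand), and for Dkk1 30 bases around the match (chr19:30549596-30549625, minus strand), both 5′ to 3′ with the match in capitals.
Wif1: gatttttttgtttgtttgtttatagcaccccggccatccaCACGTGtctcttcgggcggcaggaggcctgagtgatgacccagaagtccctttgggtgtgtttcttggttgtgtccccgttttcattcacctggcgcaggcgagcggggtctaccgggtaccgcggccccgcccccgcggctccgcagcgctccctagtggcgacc
Dkk1: ctcctcccaaagCTTTGAAatcccatcccg

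The Dickkopf genes form the largest family among the 10. Dkk1, Dkk2 and Dkk4 bind Lrp5 and Lrp6, and with the Kremen receptors they take these co-receptors off the cell surface, while Dkk3 is a distant member whose part in WNT signalling is less settled. Dkk1 had 1, 2 and 0 counts in the controls. It stood at 0.41, 10.1 and 33.5 CPM in the EV libraries and at 3.63, 2.45 and 2.86 CPM in the MycT58A libraries, so that the EV libraries spanned an 81.5-fold range around the MycT58A values. With 3 counts in all controls, the ratio of summed counts to control was 272 in EV tumours (exact 95% interval 92.9 to 1324) and 68.1 in MycT58A tumours (exact 95% interval 23.0 to 333), and both rises passed (edgeR adjusted p = 0.00288 and 0.00929), the one in MycT58A tumours not in limma-voom (adjusted p = 0.0541). These intervals cover counting error only. Dkk1 is the one member whose highest EV library was replicate 3. Beside it, 8 epithelial markers, all detected in each EV library, summed to 1211 CPM in that library, with Dsp at 874 CPM and Krt5 at 129 CPM. The sum was 27.4 and 95.7 CPM in EV replicates 1 and 2, 56.6 to 72.3 CPM in MycT58A tumours and 9.85 to 22.0 CPM in controls. Of the 8, Cdh1 alone was lower in EV replicate 3, at 22.7 CPM, than in MycT58A tumours, at 41.6 to 57.9 CPM. The part of such cells in the Dkk1 level was not tested. The edgeR fold of Dkk1 in EV tumours moved from 299.9 to 107.5 without EV replicate 3 and to 565 without control replicate 2, and in MycT58A tumours from 61.1 to 112 without control replicate 2.

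Dkk2 stood at 0.94, 0.97 and 0.47 CPM in the controls, at 37.2, 154 and 13.0 CPM in the EV libraries and at 25.4, 51.5 and 42.8 CPM in the MycT58A libraries. The EV libraries lay both above and below the MycT58A libraries, and all tumours lay above all controls. Dkk2 rose 85.0-fold in EV tumours (log2 fold change 6.41 ± 0.97 SE, edgeR adjusted p = 0.000761), or 31.5-fold without EV replicate 2, and in MycT58A tumours 49.8-fold (edgeR adjusted p = 0.00101). Dkk4 had 1, 0 and 0 counts in the controls and was nearly silent there. It stood at 14.3, 127 and 14.97 CPM in the EV libraries and at 9.07, 3.34 and 7.50 CPM in the MycT58A libraries, with no overlap between the tumour groups. With a single control count the ratio of summed counts was 3568 in EV tumours (exact 95% interval 640.06 to 140982) and 449.9 in MycT58A tumours (exact 95% interval 80.4 to 17805), and both rises passed (edgeR adjusted p = 0.000385 and 0.00122). These intervals, too, cover counting error only, and 2985 of the 3668 EV counts came from EV replicate 2. The edgeR fold of Dkk4 in EV tumours moved from 2645 to 748.7 without EV replicate 2. Without control replicate 1, which holds the only control count, it moved to 9991 in EV tumours and from 337 to 1277 in MycT58A tumours.

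Dkk3 was the antagonist of highest level per length in cerebellum. It stood at 29.4, 45.1 and 83.1 CPM in the controls, at 352, 642 and 41.0 CPM in the EV libraries and at 273, 279 and 172 CPM in the MycT58A libraries. EV replicate 3 thus lay within the control range, while the other tumour libraries lay above it. The rise was 6.57-fold in EV tumours (log2 fold change 2.72 ± 0.83 SE, edgeR adjusted p = 0.0218), and in MycT58A tumours it was 4.59-fold (log2 fold change 2.20 ± 0.82 SE, edgeR adjusted p = 0.0423). Both calls were close to the threshold. In EV tumours the call ended without control replicate 1, control replicate 2 or EV replicate 2 (5.40-, 6.14- and 3.77-fold, edgeR adjusted p = 0.0726, 0.0699 and 0.06). In MycT58A tumours it ended without control replicate 1 or 2, EV replicate 1 or any 1 of the MycT58A libraries, at 3.79- to 5.28-fold with edgeR adjusted p from 0.056 to 0.121. Other methods also ended it: in EV tumours limma-voom without and with group weights (adjusted p = 0.0751 and 0.0729) and edgeR with only these groups (adjusted p = 0.0516), and in MycT58A tumours limma-voom (adjusted p = 0.0534) and edgeR with library size alone (adjusted p = 0.0502).

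Sostdc1, also called Wise, binds Lrp co-receptors and also blocks BMP proteins, and in the brain it is known from the choroid plexus. It stood at 0.082, 0.222 and 0.14 CPM in the controls, at 15.8, 131 and 0.34 CPM in the EV libraries and at 9.43, 19.4 and 12.7 CPM in the MycT58A libraries. EV replicate 3 was close to the controls with 6 counts, and EV replicate 2 lay far above all other libraries. Sostdc1 rose 323-fold in EV tumours (log2 fold change 8.33 ± 1.88 SE, edgeR adjusted p = 0.0055), a value that was 53.9-fold without EV replicate 2 and 485-fold without EV replicate 3. In MycT58A tumours it rose 91.1-fold (edgeR adjusted p = 0.0116). In limma-voom neither rise passed (adjusted p = 0.0988 and 0.076).

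Sfrp1 and Frzb carry a domain like the WNT-binding part of Frizzled and catch WNT proteins before they reach the receptor. Sfrp1 stood at 11.03, 15.2 and 5.69 CPM in the controls, at 11.6, 148 and 1.47 CPM in the EV libraries and at 23.2, 29.0 and 19.7 CPM in the MycT58A libraries. The EV libraries reached below and above the controls, while every MycT58A library lay above every control. Neither difference from control passed, at a log2 fold change of 2.34 ± 1.25 SE in EV tumours (edgeR adjusted p = 0.138) and 1.17 ± 1.21 SE in MycT58A tumours (edgeR adjusted p = 0.42). Without the library labelled EV replicate 3 Sfrp1 passed in EV tumours at 7.53-fold (edgeR adjusted p = 0.0217), and without EV replicate 2 the log2 fold change was -0.68 (edgeR adjusted p = 0.444). With only MycT58A and control libraries in the edgeR fit, the difference in MycT58A tumours passed (log2 fold change 1.17, adjusted p = 0.0132).

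Over the EV libraries Sostdc1 and Sfrp1 took the same order as the summed choroid plexus markers, replicate 2 highest and replicate 3 lowest, as did Wif1, Notum, Dkk2 and Dkk3. The 10 markers summed to 803, 2235 and 57.0 CPM in EV replicates 1, 2 and 3, to 293, 370 and 729.8 CPM in the MycT58A libraries and to 170.5 to 217 CPM in the controls. All 10 were detected in EV replicate 2, with the defining marker Ttr at 40.8 CPM. In EV replicate 1, 8 were detected, with Ttr and Kcne2 at 0 while Sostdc1 stood at 15.8 CPM. Aqp1 at 431 CPM and Enpp2 at 341 CPM made up most of the sum in that library. Ttr, Folr1, Clic6, Kcne2 and Kcnj13 were lower in EV replicate 1 than in EV replicate 3, against the order of the sum, while the other markers were higher. In the MycT58A libraries Otx2 alone was at 193 to 269 CPM. Among the MycT58A libraries the order differed, since Ttr was 241 CPM in replicate 3 and 0.64 CPM in replicate 2, where Sostdc1 was highest. The part of choroid plexus cells in these levels was not tested.

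Frzb was the antagonist that fell, and it fell in MycT58A tumours. It stood at 1.96, 3.32 and 11.2 CPM in the controls, at 10.8, 9.98 and 5.50 CPM in the EV libraries and at 1.73, 1.63 and 1.83 CPM in the MycT58A libraries. All 3 MycT58A libraries lay below every other library, by a small margin from the lowest control. Frzb was 3.18-fold lower in MycT58A tumours than in control (log2 fold change -1.67 ± 0.63 SE, edgeR adjusted p = 0.0444). Without control replicate 3, the highest control, it was 1.504-fold lower and did not pass (edgeR adjusted p = 0.292). The call also ended without EV replicate 1 or any 1 of the MycT58A libraries, at 3.07- to 3.25-fold lower with edgeR adjusted p from 0.0543 to 0.113. It ended as well in edgeR with no filter on low counts (adjusted p = 0.0599) and in limma-voom without and with group weights (adjusted p = 0.137 and 0.0888), so that 9 of 17 alternatives kept it. In EV tumours the log2 fold change was 0.67 ± 0.61 SE (edgeR adjusted p = 0.367), and without control replicate 3 Frzb rose 3.39-fold (edgeR adjusted p = 0.0195). Beside Frzb, 10 microglia and macrophage markers, all detected in every library, summed to 185 to 227 CPM in controls. The sum was 357, 538 and 150 CPM in EV replicates 1, 2 and 3, and 43.9 to 122 CPM in MycT58A tumours. Among the EV libraries the sum was highest in replicate 2 and Frzb in replicate 1. The part of such cells in the Frzb level was not tested.

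**Figure D2:**
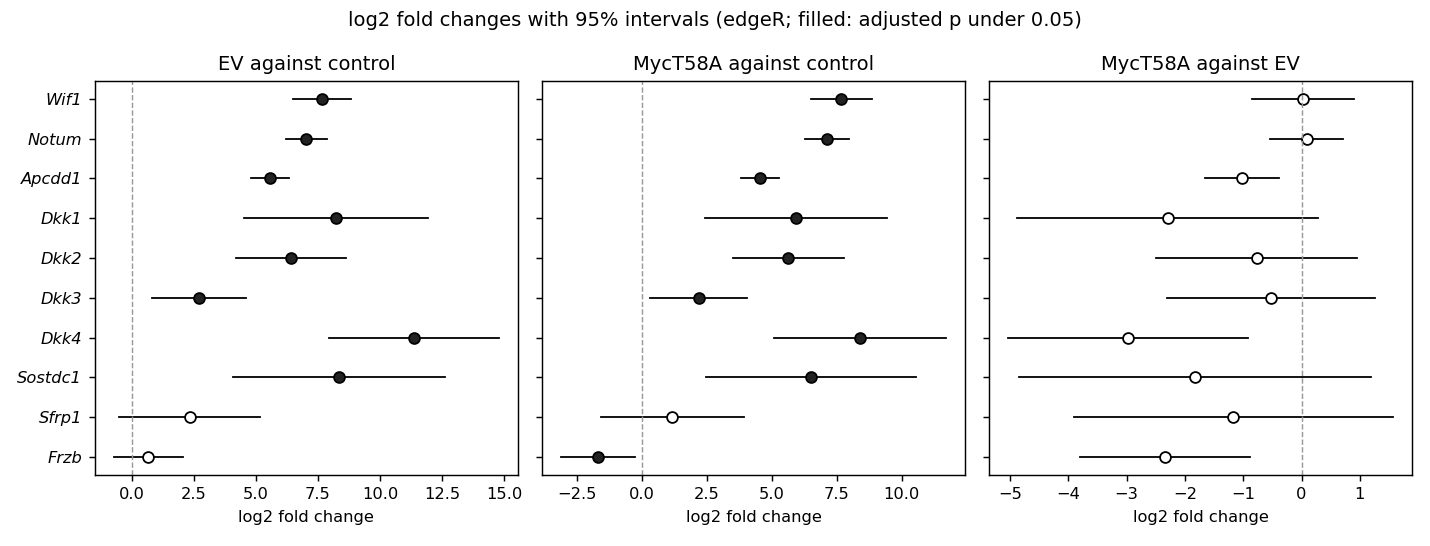
Log2 fold change of each antagonist with its 95% interval from the edgeR fit, for EV against control, MycT58A against control and MycT58A against EV; the vertical line marks no difference, and filled points passed an adjusted p of 0.05. The intervals of Wif1, Notum and Apcdd1 against control are narrow, and in MycT58A against EV all 10 points are open.

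The comparison of MycT58A with EV tumours asks how the antagonists stand when the Myc mutant is added to the same tumour genotype. The level of Myc itself overlapped between these groups and did not pass (edgeR adjusted p = 0.592). Its log2 difference was 1.13, with a 95% interval from -1.98 to 4.24. By edgeR, 0 of the 10 passed an adjusted p of 0.05, where 8.30% of all tested genes did. At an unadjusted p under 0.05, 3 of the 10 were below it, namely Apcdd1, Frzb and Dkk4, as were 31.1% of all tested genes. These are also the 3 genes with every MycT58A library below every EV library, a pattern that 13.6% of all tested genes had. DESeq2 passed 2 of the 10, Frzb and Apcdd1 (adjusted p = 0.0024 and 0.00448), where it called 23.4% of all genes, and limma-voom passed the same 2 (adjusted p = 0.0494 and 0.0395), where it called 9.97% of all genes. When limma-voom weighted the groups, 0 of the 10 and 2.96% of all genes passed. With only the tumour groups in the edgeR fit, 0 of the 10 and 0.240% of all genes passed.

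Apcdd1 averaged 578 ± 142 CPM in MycT58A and 1175 ± 322 CPM in EV tumours (SD, n = 3). It was 2.03-fold lower in MycT58A tumours, with a 95% interval of the log2 difference from -1.66 to -0.39 (edgeR adjusted p = 0.0549). Frzb was 5.05-fold lower, with an interval from -3.79 to -0.88 (edgeR adjusted p = 0.056), and Dkk4 7.84-fold lower, with an interval from -5.03 to -0.92 (edgeR adjusted p = 0.0727). All 3 lay just above the threshold. Apcdd1 passed under 5 of 17 alternatives, Frzb under 4 of 17 and Dkk4 under 2 of 16. None of the 3 passed in edgeR without any 1 MycT58A library or with only the tumour groups in the fit. Few of all tested genes passed there either, at 0.232% to 0.451% without 1 MycT58A library. The share was 0.240% with only the tumour groups and 8.30% in the main fit. Without the library labelled EV replicate 3 all 3 passed in edgeR, where 14.7% of all tested genes were lower, with Apcdd1 2.08-fold lower (adjusted p = 0.0397), Frzb 6.004-fold lower (adjusted p = 0.0285) and Dkk4 10.6-fold lower (adjusted p = 0.0231). Without EV replicate 1, Apcdd1 (adjusted p = 0.0362), Dkk4 (adjusted p = 0.0418) and Dkk1 (7.27-fold lower, adjusted p = 0.0302) passed in edgeR, and without control replicate 3 Frzb did (adjusted p = 0.04). Without EV replicate 2, Dkk4 was 2.21-fold lower (edgeR adjusted p = 0.138). The difference in Dkk4 thus rests in large part on 1 EV library of 127 CPM.

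For the other members the 95% intervals between tumour groups included 0. Dkk1 was lower by a log2 difference of 2.29 with an SE of 1.13 (edgeR adjusted p = 0.202), or 4.90-fold, and without the library labelled EV replicate 3 it was 1.73-fold lower (edgeR adjusted p = 0.58). For Dkk2 the 95% interval ran from -2.49 to 0.95 (edgeR adjusted p = 0.506). For Sostdc1 the interval ran from -4.84 to 1.19 (edgeR adjusted p = 0.372), for Sfrp1 from -3.91 to 1.57 (edgeR adjusted p = 0.528) and for Dkk3 from -2.30 to 1.26 (edgeR adjusted p = 0.673). The intervals of Dkk1, Dkk2, Dkk3, Sostdc1 and Sfrp1 were wider than those of Wif1 and Notum.

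Compared per kilobase of exon, the set changed its leading gene between cerebellum and tumour. In the controls Dkk3 led with 15.6 ± 8.22 CPM per kilobase (SD, n = 3), with no overlap with Wif1 at 4.196 ± 1.39, and Sfrp1, Apcdd1, Frzb, Notum, Dkk2, Sostdc1, Dkk1 and Dkk4 followed. In EV tumours Wif1 led with 850.0 ± 376 CPM per kilobase and no overlap with the next, Dkk3. The order below it was Dkk3, Apcdd1, Notum, Dkk4, Sostdc1, Dkk2, Sfrp1, Dkk1 and Frzb, and every neighbouring pair among these overlapped. In MycT58A tumours Wif1 led with 862 ± 211 CPM per kilobase, and Notum, Dkk3 and Apcdd1 formed a second tier of 44.8 to 89.5. Dkk2, Sostdc1, Sfrp1 and Dkk4 formed the next tier of 5.05 to 10.8, followed by Dkk1 at 1.23 and Frzb at 0.53, with no overlap between one tier and the next.

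The summed level of the 10 genes was 17.2, 26.1 and 37.3 CPM per kilobase in the controls. It was 1036, 1923 and 745 in the EV libraries and 1076, 1376 and 844 in the MycT58A libraries, with the tumour groups overlapping. Wif1 made up 14.3% to 17.7% of this sum in controls, 66.0% to 72.8% in EV and 77.9% to 78.7% in MycT58A tumours. Dkk3 fell from 50.9% to 66.4% of the sum in controls to 1.64% to 10.1% in EV and 6.03% to 7.54% in MycT58A tumours. The antagonist transcripts of the tumours were thus mostly Wif1, by level per length, in all 6 libraries.

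**Figure D3:**
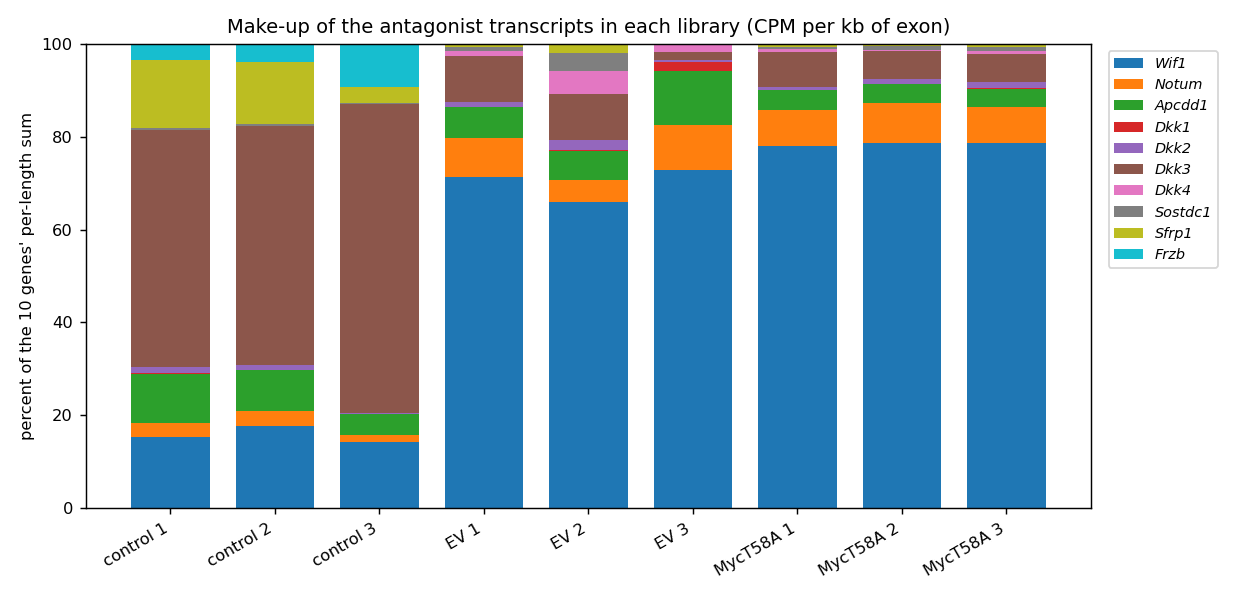
Share of each antagonist in the summed level of the 10 genes, in percent of CPM per kilobase of exon, as stacked bars for the 9 libraries. Dkk3 takes 50.9% to 66.4% of each control bar, and Wif1 takes 66.0% to 78.7% of each tumour bar.

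The EV libraries differed among themselves more than the MycT58A libraries did, and unequally among the antagonists. The standard deviation of log2 CPM over the EV libraries was 4.19 for Sostdc1, 3.30 for Sfrp1 and 3.14 for Dkk1, values above those of 99.6%, 98.6% and 98.3% of all tested genes. Wif1 at 0.62, Frzb at 0.53, Apcdd1 at 0.39 and Notum at 0.18 lay below the median of all genes, 0.64. Sostdc1 spanned 385-fold and Sfrp1 101-fold over the EV libraries, and without EV replicate 3 they spanned 8.29-fold and 12.8-fold. Dkk1 spanned 24.5-fold without that library, and Wif1 1.72-fold. In MycT58A tumours the order was not the same, since Notum at 0.44, Apcdd1 at 0.37 and Wif1 at 0.35 lay above the median of all genes, 0.20, and above Dkk1 and Sfrp1, both at 0.28. For 9 of the 10 the standard deviation was larger in EV than in MycT58A tumours, Notum being the exception, and the same held for 86.1% of all tested genes. EV replicate 2 was the highest EV library for 8 of the 10 (40.2% of all genes) and EV replicate 3 the lowest for 7 (36.7% of all genes). Beside this, the 12 pericyte and fibroblast markers, all detected in every library, summed to 2740, 14253 and 8323 CPM in EV replicates 1, 2 and 3, to 1477 to 1803 CPM in MycT58A tumours and to 412 to 504 CPM in controls. A few fibroblast genes carried these sums, with Dcn at 1017 to 1375 CPM in MycT58A tumours and 7020 CPM in EV replicate 2, and Col1a1 at 6006 CPM in EV replicate 3. The pericyte marker Rgs5 was at 125 to 158 CPM in controls and 28.7 to 52.4 CPM in MycT58A tumours, and by edgeR 6 of the 12 rose in EV tumours, while 3 rose and 1 fell in MycT58A tumours. Of all tested genes 30.7% rose in EV tumours, and 31.2% rose and 31.0% fell in MycT58A tumours. The part of these cells in the spread was not tested.

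**Figure D4:**
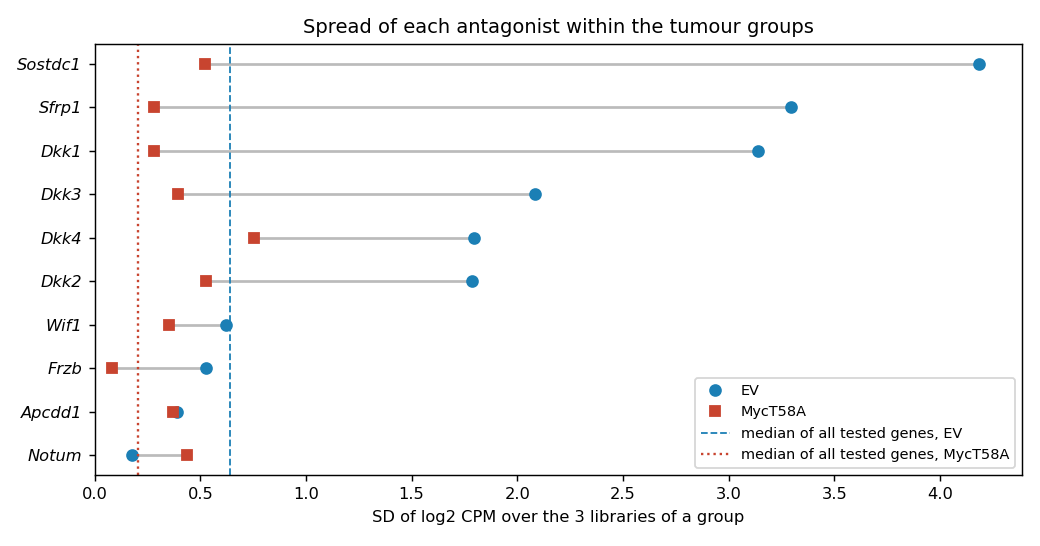
Standard deviation of log2 CPM over the 3 libraries of a group for each antagonist, with circles for EV and squares for MycT58A tumours; the vertical lines mark the median over all tested genes in EV (dashed) and MycT58A tumours (dotted). Notum alone has its circle left of its square, and the circles of Sostdc1, Sfrp1 and Dkk1 lie farthest right.

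The genes whose pattern over the 9 libraries came closest to each antagonist were found by the root mean square difference of log2 levels after each gene was centred. Notum was closest to Fzd10, a Frizzled receptor, at 0.21, and Apcdd1 to Bmp2, a BMP ligand, at 0.23. For Wif1 the closest was Ifitm1 at 0.42, followed by the BMP ligand Bmp3 at 0.44. Dkk3 was closest to the retinoic acid receptor Rarb at 0.40 and Dkk2 to 2700046A07Rik at 0.47. Frzb was closest to Rab7b at 0.53, nearly tied with the microglial gene Trem2 at 0.54. Sfrp1 was closest to the nuclear receptor Nr2f1 at 0.56, followed by Fmo2 at 0.57. Dkk4 was closest to Evx1os at 0.67 and then to its neighbour Evx1, a homeobox gene, at 0.81, Dkk1 to the transcription factor Tfap2c at 0.69, and Sostdc1 to the proteoglycan Dcn at 0.72. No member had another member as its closest gene, and among the antagonists themselves Wif1 and Notum were the closest pair at 0.45. These values describe 9 libraries that share 3 groups and carry no test.

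The partners that these antagonists act on also differed between tumour and cerebellum. Of 19 receptors and co-receptors, all tested, 11 rose and 0 fell in EV tumours, and 12 rose and 1, Fzd3, fell in MycT58A tumours by edgeR. Of all tested genes 30.7% rose and 26.3% fell in EV tumours, and 31.2% rose and 31.0% fell in MycT58A tumours. The fall of Fzd3 was 2.12-fold (edgeR adjusted p = 0.0152) and is lost without control replicate 2 or MycT58A replicate 1 (edgeR adjusted p = 0.0561 and 0.0618). Fzd10 went from 1.81 ± 0.433 CPM in controls to 235.5 ± 49.6 CPM in EV and 260.1 ± 23.6 CPM in MycT58A tumours (SD, n = 3), a 129.7-fold and a 143-fold rise (edgeR adjusted p = 1.19e-05 and 1.38e-05). Ror2, a receptor for Wnt5a, rose 22.0-fold and 12.5-fold (edgeR adjusted p = 2.04e-05 and 2.91e-05). Of the DKK receptors, Kremen1 rose 8.46-fold and 6.34-fold (edgeR adjusted p = 0.000125 and 0.000186) and Lrp5 4.05-fold and 6.66-fold (edgeR adjusted p = 0.000272 and 6.66e-05). Kremen2 was low, at 0.41 ± 0.12 CPM in controls, 0.60 ± 0.46 CPM in EV and 0.70 ± 0.36 CPM in MycT58A tumours (SD, n = 3), and did not pass (edgeR adjusted p = 0.575 and 0.415). Lrp6 did not pass, at 1.44-fold and 1.65-fold (edgeR adjusted p = 0.215 and 0.0976), and passed in MycT58A tumours without EV replicate 1 or 2 (edgeR adjusted p = 0.0237 and 0.0452). Between tumour groups 0 of the 19 passed in edgeR, and 2 had an unadjusted p under 0.05. For all tested genes these shares were 8.30% and 31.1%.

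Of the 19 Wnt ligands, the proteins that Wif1, Sfrp1, Frzb and Notum act on, 15 were tested. In EV tumours 8 rose and 2 fell, in MycT58A tumours 4 rose and 5 fell, and 5 were lower and 0 higher in MycT58A than in EV tumours by edgeR. Of all tested genes 30.7% rose and 26.3% fell in EV tumours, and 31.2% rose and 31.0% fell in MycT58A tumours. Between the tumour groups 5.02% were lower and 3.28% higher in MycT58A tumours. Wnt5a, a ligand that mostly acts without beta-catenin, rose 40.4-fold in EV and in MycT58A tumours 12.4-fold (edgeR adjusted p = 1.52e-05 and 3.55e-05), and Wnt5b rose 10.6-fold in both (edgeR adjusted p = 0.000125 and 0.000104). Wnt7a, a ligand of the developing brain's vessels and cerebellar neurons, was 12.3-fold lower in EV and 120.4-fold lower in MycT58A tumours (edgeR adjusted p = 0.0218 and 0.00201). The EV call of Wnt7a is lost without control replicate 1, control replicate 2 or EV replicate 1 (edgeR adjusted p from 0.0511 to 0.0654), and without MycT58A replicate 1 its fall in MycT58A tumours was 187-fold. Wnt3 was 6.09-fold lower in EV tumours (edgeR adjusted p = 0.0352), a call kept only without EV replicate 1 or 3 and otherwise lost when 1 library is left out (edgeR adjusted p from 0.0513 to 0.0904). Without EV replicate 3, Wnt7a was 61.8-fold and Wnt3 25.3-fold lower in EV tumours.

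Wnt4, a ligand of kidney and meninges among other tissues, changed in opposite directions in the tumour groups. Wnt4 averaged 5.73 ± 1.45 CPM in controls, 26.9 ± 5.51 CPM in EV and 1.07 ± 0.54 CPM in MycT58A tumours (SD, n = 3). It was 4.70-fold higher in EV and 5.30-fold lower in MycT58A tumours than in control (edgeR adjusted p = 0.00171 and 0.00112). It was 24.9-fold lower in MycT58A than in EV tumours (edgeR adjusted p = 0.00476). Wnt6 was 6.54-fold lower (edgeR adjusted p = 0.00941), a call lost without MycT58A replicate 1 or 3 (edgeR adjusted p = 0.0565 and 0.0676), and Wnt5a 3.26-fold lower (edgeR adjusted p = 0.013), a call lost without any 1 MycT58A library (edgeR adjusted p from 0.0668 to 0.0806). With 1 library left out, the count of ligands lower in MycT58A than in EV tumours ran from 1 to 7. Without 1 MycT58A library, 0.232% to 0.451% of all tested genes passed between the tumour groups, against 8.30% in the main fit.

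Genes for glypicans and for Wnt lipid modification and secretion moved in both directions, with 4 of 8 higher and 2 lower in each tumour group by edgeR. Of all tested genes 30.7% rose and 26.3% fell in EV tumours, and 31.2% rose and 31.0% fell in MycT58A tumours. Porcn, the enzyme that adds the lipid that Notum removes, was 9.02-fold lower in EV and 10.5-fold lower in MycT58A tumours (edgeR adjusted p = 4.59e-05 and 3.36e-05). Wls, which carries Wnt proteins to the cell surface, was 9.62-fold higher in EV and 3.24-fold higher in MycT58A tumours (edgeR adjusted p = 0.000169 and 0.00264). Gpc4, a glypican of the cell surface to which Notum can bind, rose 18.0-fold and 13.95-fold (edgeR adjusted p = 0.000133 and 0.000156). The lower Wls level in MycT58A than in EV tumours, 2.97-fold (edgeR adjusted p = 0.032), did not pass without any 1 control or MycT58A library (edgeR adjusted p from 0.0614 to 0.133). In those fits 2.01% to 2.35% of all tested genes passed without 1 control library. Without 1 MycT58A library 0.232% to 0.451% did, against 8.30% in the main fit.

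Among feedback genes that act inside the cell or at its membrane, 8 of 9 rose and 0 fell in each tumour group by edgeR. Of all tested genes 30.7% rose in EV and 31.2% in MycT58A tumours, while 26.3% and 31.0% fell. Axin2, a scaffold of the beta-catenin destruction complex, went from 11.1 ± 3.00 CPM to 209 ± 9.43 CPM in EV and 211 ± 21.2 CPM in MycT58A tumours (SD, n = 3), an 18.8-fold and an 18.99-fold rise (edgeR adjusted p = 1.5e-05 and 1.81e-05). Rnf43, which removes Frizzled from the surface, rose 9.74-fold and 10.1-fold (edgeR adjusted p = 2.75e-05 and 2.53e-05). Between the tumour groups the log2 differences of Axin2 and Rnf43 were 0.01 and 0.06 (edgeR adjusted p = 0.968 and 0.866). Nkd2, an inhibitor that binds Dishevelled, was 6.70-fold lower in MycT58A than in EV tumours (edgeR adjusted p = 0.0316), or 3.87-fold lower without EV replicate 1, and that call is lost without any 1 control or MycT58A library (edgeR adjusted p from 0.0553 to 0.133). In those fits calls were also few among all tested genes, at 2.01% to 2.35% without 1 control library and 0.232% to 0.451% without 1 MycT58A library.

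Of 7 further secreted antagonists outside the 10, 6 were tested. In EV tumours 2 rose and 1 fell, and in MycT58A tumours 3 rose and 1 fell by edgeR. Of all tested genes 30.7% rose and 26.3% fell in EV tumours, and 31.2% rose and 31.0% fell in MycT58A tumours. Igfbp4, an IGF-binding protein that also binds Frizzled and Lrp6, rose 34.6-fold in EV tumours (edgeR adjusted p = 0.000221), or 18.8-fold without EV replicate 2, and in MycT58A tumours 12.8-fold (edgeR adjusted p = 0.000648). Draxin, an axon guidance protein that binds Lrp6, rose 43.2-fold in EV tumours (edgeR adjusted p = 0.000846), or 20.4-fold without EV replicate 3, and in MycT58A tumours 78.7-fold (edgeR adjusted p = 0.000391). Sfrp2, a close relative of Sfrp1, rose 14.8-fold in MycT58A tumours (edgeR adjusted p = 0.00791), or 30.1-fold without control replicate 2. Sost, the sclerostin gene, averaged 3.17 ± 1.12 CPM in controls and 0.30 ± 0.43 CPM in EV tumours (SD, n = 3) and was 11.1-fold lower there (edgeR adjusted p = 0.0298), or 51.6-fold without EV replicate 3, a call lost without any 1 control library, EV replicate 1 or MycT58A replicate 1 (edgeR adjusted p from 0.0538 to 0.0861).

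R-spondins, which strengthen WNT signals by removing Rnf43, and Norrin, a Frizzled ligand of brain vessels, are the agonists set beside the antagonists. Of these 5 genes, 2 rose and 2 fell in EV tumours, and 1 rose and 2 fell in MycT58A tumours by edgeR. Of all tested genes 30.7% rose and 26.3% fell in EV tumours, and 31.2% rose and 31.0% fell in MycT58A tumours. Rspo4 had 0 counts in all controls and averaged 18.1 ± 16.4 CPM in EV and 24.3 ± 8.35 CPM in MycT58A tumours (SD, n = 3; edgeR adjusted p = 0.00249 and 0.00175). Ndp, which encodes Norrin, was 15.8-fold lower in EV tumours (edgeR adjusted p = 0.00333), or 52.6-fold lower without EV replicate 2, and 14.7-fold lower in MycT58A tumours (edgeR adjusted p = 0.00302). The rise of Rspo1 in EV tumours (edgeR adjusted p = 0.0442) was a 0.87-fold difference without EV replicate 2 (edgeR adjusted p = 0.887) and was also lost without any 1 control or MycT58A library (edgeR adjusted p from 0.0629 to 0.123).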

How the data were processed

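The authors deposited a table of raw read counts per gene symbol for 9 libraries. The submitters' processing notes name bcl2fastq, TopHat, edgeR and the build mm10, while tool versions, read counter, annotation and strand use are not given in the sources. The 10 genes, the pathway and marker lists and the tests were chosen with earlier results of these data known. The rows were matched by symbol. Counts were filtered with filterByExpr (minimum count 10, total 15), which left 15171 of 24444 genes, scaled by TMM and fitted with edgeR 4.0.16 (R 4.3.3, glmQLFit and glmQLFTest) on all 9 libraries, so that the groups share an estimate of spread. The groups differed in spread, with a median SD of log2 CPM of 0.17 in control, 0.64 in EV and 0.20 in MycT58A libraries. The p-values therefore depend on this sharing. P-values were adjusted over all tested genes by Benjamini-Hochberg at 0.05, and the fit was tested on simulated data. The simulated counts had the same spread in every group, so they could not test the fit at the larger spread of the EV libraries. CPM values use TMM library sizes, and levels per length divide them by the union of exons in GENCODE vM21. Total counts of 16631523 to 30410089 set the depth behind each value. Ratios of summed counts carry exact 95% intervals that cover counting error only, not the spread between libraries.

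From each pathway list the text names the genes of smallest p in each direction that passed. Lrp5, Lrp6, Kremen1 and Kremen2 were added as receptors of DKK proteins, Sfrp2 as a relative of Sfrp1, and these were chosen after their values were seen. Replicates carry no numbers that pair them and were numbered in order. Counts of replicate libraries differed by more than sampling noise in every pair. As alternatives (17 in all), scaling was by RLE or by library size alone, the filter was dropped or set to 1 CPM, DESeq2 1.42.0 or limma-voom (limma 3.58.1, without and with group weights) replaced edgeR, only the groups compared were fitted, and each library was left out.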

Additional observations from a re-analysis of the deposited data

Results flagged for a closer look

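Frzb lay on opposite sides of the control mean of log2 CPM in the tumour groups, with every EV library above it and every MycT58A library below it. The EV libraries, at 5.50 to 10.8 CPM, were within the control range of 1.96 to 11.2 CPM. Against control, Frzb did not pass in EV tumours (edgeR adjusted p = 0.367). The difference itself, a log2 fold change of -2.34 in MycT58A against EV, had an edgeR adjusted p of 0.056 and did not pass. Over the alternatives its adjusted p ran from 0.0024 to 0.237, and 4 of 17 passed.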

How the results depend on the processing

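Of 505 values of single antagonists under 17 alternatives, 443 kept their direction and side of the threshold, 25 no longer passed, 16 newly passed and 21 changed direction. Wif1, Notum, Apcdd1 and Dkk2 passed against control in both tumour groups under all 17. Beside each count of antagonists that passed stands the share of all tested genes that did. In EV tumours it was 5 with only the compared groups in the fit (47.5%), where Dkk1 and Sostdc1 were filtered out, 6 with limma-voom (55.8%) and 7 to 9 with 1 library left out (44.9% to 65.9%). In MycT58A tumours it was 5 with limma-voom (62.7%), 10 with only the compared groups (80.5%) and 7 to 9 with 1 library left out (51.9% to 70.3%). In MycT58A against EV it was 1 with library size alone (8.17%), 2 with DESeq2 (23.4%), 2 with limma-voom (9.97%) and 0 to 3 with 1 library left out (0.232% to 25.7%, the highest without EV replicate 3). DESeq2 gave no adjusted p for Dkk4.

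With 1 library left out, the log2 fold change of Sfrp1 in EV tumours ran from -0.68 (EV replicate 2) to 2.91. The other reversals were in MycT58A against EV, where no such value passed. With 1 library left out, the log2 difference there ran from -1.24 to 0.67 for Dkk2, -1.04 to 0.29 for Dkk3, -0.21 to 0.43 for Wif1, -0.17 to 0.28 for Notum, -2.38 to 0.77 for Sostdc1 and -1.72 to 1.86 for Sfrp1. The reversed ends came without EV replicate 2, except for Wif1 (EV replicate 1, -0.06, EV replicate 3 and MycT58A replicate 2, -0.17) and Notum (MycT58A replicate 2). Wif1 was also -0.023 with RLE scaling, -0.023 with DESeq2, -0.018 with the 1 CPM filter, -0.044 with only these groups and -0.12 with library size alone, where Notum was -0.046. With limma-voom, without and with weights, Dkk3 was 0.16 and 0.16, Sostdc1 0.24 and 0.20, and Sfrp1 0.62 and 0.61. The cause was not tested.

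Library size alone moved the median of all genes in MycT58A against EV from -0.04 to -0.17 and the share of higher calls from 39.6% to 24.3%. No paired analysis was possible because the labels give no replicate numbers that tie libraries across groups.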
